A study of Homo sapiens with 6 samples.

Results

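Serine synthesis and folate one-carbon enzymes were examined in HEK293 cells with and without STAT5B. The genes were 9 in number and were found by symbol, not by their values: PHGDH, PSAT1, PSPH, SHMT1, SHMT2, MTHFD1, MTHFD2, MTHFD1L and ALDH1L2. Each matched 1 of the 60609 gene identifiers in the files, and all 9 were among the 15958 genes with enough reads to be tested. HEK293 is a human embryonic kidney cell line. One group was wild type and the other carried a STAT5B knockout made with CRISPR/Cas9, with 3 mRNA libraries each. Both groups were grown in the same serum-containing medium, and the labels name no treatment. The knockout cells were clones picked for a mutation on both alleles, and the labels give neither the number of clones nor whether a group's 3 libraries came from separate cultures. The p-values therefore measure the spread between these libraries, which may be technical, and loss of STAT5B and a difference between the picked clones and the parental cells cannot be told apart. The word Sham in some sample titles, which the labels do not explain, was not used for grouping. The protocol speaks of GS knockout clones, and GS is not explained either. The groups were taken from the genotype label.

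In serine synthesis, PHGDH oxidises a glycolytic intermediate, PSAT1 transfers an amino group from glutamate to the product, and PSPH removes the phosphate to release serine. Serine hydroxymethyltransferases then split serine into glycine and a carbon unit carried by tetrahydrofolate. Folate enzymes pass that unit through a mitochondrial branch, which exports formate, and a cytosolic branch, which feeds purine, thymidylate and methionine synthesis. Proliferating cells in culture are known to draw on both, and ATF4, the transcription factor of the amino acid response, is a known activator of many of these genes.

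Library sizes were 17494958 to 21099813 estimated counts. STAT5B mRNA, the targeted gene, was at 70.1, 64.6 and 69.4 CPM (counts relative to the scaled library size) in wild-type cells. It was at 63.1, 61.8 and 60.5 CPM in knockout cells, with a log2 fold change of −0.14 (edgeR adjusted p = 0.0468). Counts over the whole gene therefore do not check the genotype. The 6 genes used to check for HEK293, among them VIM and NEFM, were detected in every library, with PAX2 lowest at 1.47 to 2.0 TPM (transcript abundance, a level per length). The 6 summed to 989 to 1010 TPM in wild-type cells and 864 to 889 TPM in knockout cells, the difference lying in NEFM (222 to 238 against 90 to 106 TPM). Of 8 markers of blood, endothelium, liver and fibroblasts, PTPRC, CD3E and CDH5 were at 0 TPM in all libraries. The 8 summed to 6.43 to 8.0 TPM in wild-type cells and 6.65 to 7.10 TPM in knockout cells, mostly COL1A1. Because these are levels in whole cultures, more cells with an mRNA and more mRNA per cell cannot be told apart.

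The serine synthesis genes and most of the mitochondrial folate branch were higher in knockout cells, by 11.5% to 29.6%. The cytosolic members SHMT1 and MTHFD1 did not pass the test. Of the 9 genes, 6 rose and 0 fell at an adjusted p under 0.05 in edgeR's quasi-likelihood test, where 12.1% of all tested genes rose, 11.4% fell and 23.4% did either. DESeq2 and limma-voom also gave 6 rises, and neither these tools nor an unadjusted edgeR p under 0.05 gave a fall (0 of 9). The median log2 fold change (knockout against wild type) was 0.20 over the 9 genes and 0.006 over all tested genes. The CPM ranges of the groups did not overlap for the same 6 genes, and 0 lay wholly lower, where 19.9% of all tested genes lay wholly higher in knockout cells and 18.7% wholly lower. With offsets for the deposited effective length edgeR called 4 of the 9 higher, where it called 5.58% of all genes higher. On TPM only PHGDH and MTHFD2 had ranges that did not overlap, and limma on log2(TPM + 1) called 1 member, PHGDH, where it called 3.06% of all genes higher.

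**Figure D1:**
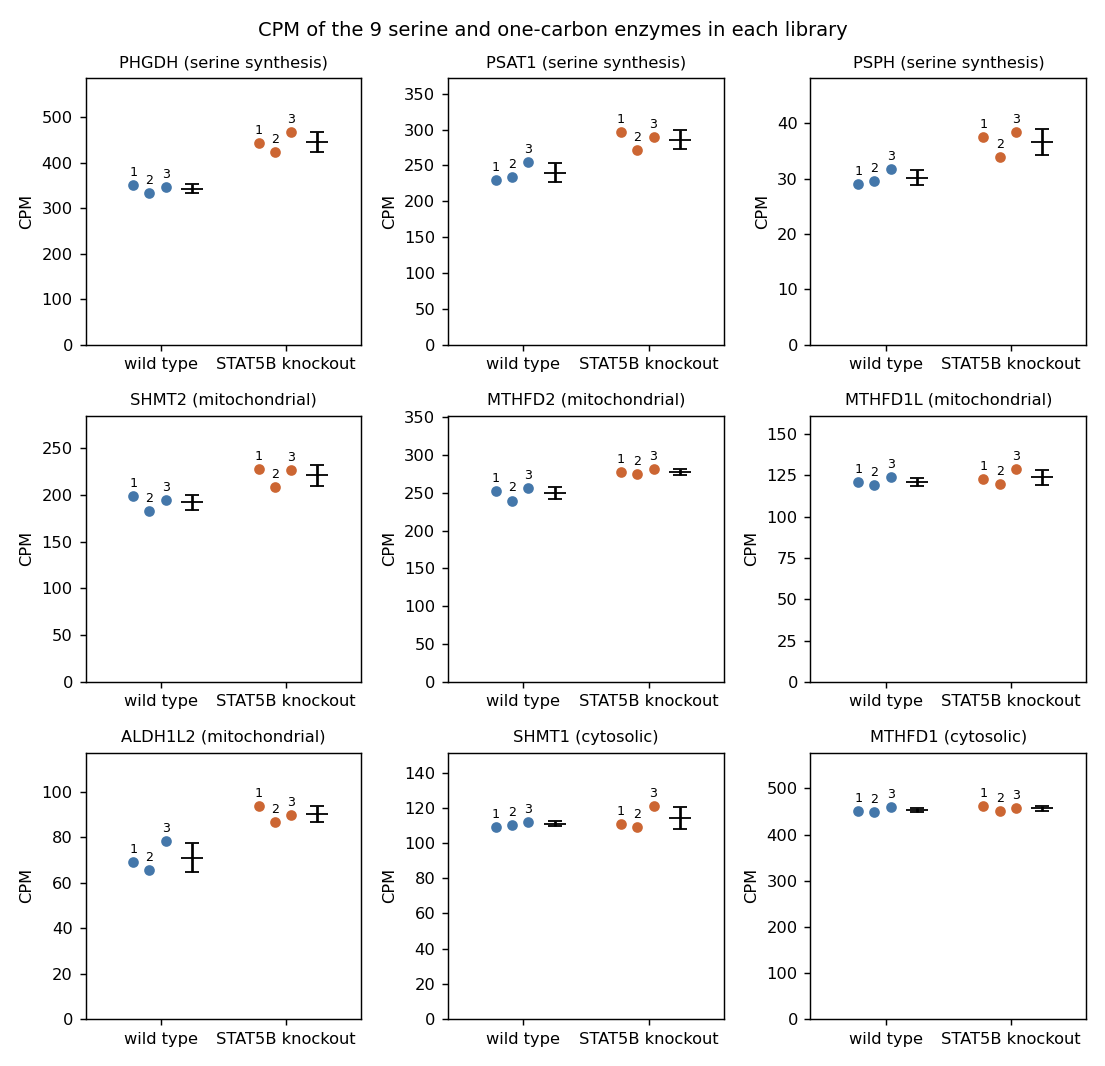
CPM (vertical axis, from 0) of each enzyme in the 3 wild-type and 3 knockout libraries, numbered by replicate, with the mean and SD as a bar beside the points. All 3 knockout points of PHGDH, PSAT1, PSPH, SHMT2, MTHFD2 and ALDH1L2 lie above the 3 wild-type points, and those of MTHFD1L, SHMT1 and MTHFD1 do not.

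By level per length the order in wild-type cells was PHGDH (384 ± 15.8 TPM, SD, n = 3), MTHFD1 (327), MTHFD2 (214), PSAT1 (197), SHMT2 (177), SHMT1 (91.3), MTHFD1L (73.1), PSPH (33.3) and ALDH1L2 (19.1). Neighbours in this order did not overlap over the 3 libraries, except MTHFD2 and PSAT1. In the knockout the order was the same, and the ranges of MTHFD2 and PSAT1 and of PSAT1 and SHMT2 overlapped. PHGDH was the 363rd most abundant gene of the wild type and the 277th of the knockout by mean TPM. The 9 mRNAs together made up 0.153%, 0.148% and 0.154% of the TPM in wild-type cells and 0.170%, 0.159% and 0.175% in knockout cells. The share of the 9 taken by PHGDH was 24.8% to 26.0% in wild-type cells and 27.9% to 29.3% in knockout cells.

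PHGDH (ENSG00000092621, plus strand of chromosome 1, 119648411 to 119744226, hg38) encodes the dehydrogenase that commits carbon to serine. It stood at 350, 333 and 347 CPM in wild-type cells and at 443, 423 and 468 CPM in knockout cells. Every knockout library was above every wild-type library, and the SDs were 9.23 and 22.5 CPM. The log2 fold change was 0.37 (SE 0.039, edgeR adjusted p = 1.82e-05), a rise of 29.6%. The deposited effective length of PHGDH, which divides the counts to give TPM, differed little (means of 1456 and 1411 bases), and its TPM were 386, 368 and 399 against 474, 465 and 507. PHGDH was the only member whose call held in all 16 alternative settings, with log2 fold changes of 0.33 to 0.41.

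PSAT1 (ENSG00000135069, plus strand of chromosome 9, 78297143 to 78330093) encodes the aminotransferase of the second step. Its level was 230, 234 and 255 CPM in wild-type cells and 297, 272 and 290 CPM in knockout cells. The groups did not overlap, though wild-type replicate 3 and knockout replicate 2 came close to each other. PSAT1 rose by 19.1%, a log2 fold change of 0.25 (SE 0.044, edgeR adjusted p = 8.56e-04). On TPM the groups overlapped, with 190, 191 and 208 in wild-type cells and 230, 204 and 231 in knockout cells, and the call ended (limma on log2(TPM + 1), adjusted p = 0.113).

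PSPH (ENSG00000146733, minus strand of chromosome 7, 56011051 to 56051604) encodes the phosphatase of the last step and was the least abundant of the 3. It had 29.1, 29.6 and 31.7 CPM in wild-type cells and 37.6, 34.0 and 38.5 CPM in knockout cells, again with no overlap. PSPH rose by 21.4%, a log2 fold change of 0.28 (SE 0.064, edgeR adjusted p = 0.00582). Its deposited effective length varied from 1290 to 1609 bases between libraries, and its TPM overlapped between groups (29.7, 35.5 and 34.6 against 39.7, 33.7 and 46.4). With offsets for effective length the log2 fold change was 0.33 and the call ended (edgeR adjusted p = 0.106), as it did on log2(TPM + 1) (limma adjusted p = 0.215). The pseudogene PSPHP1 held 0 reads in every library.

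Promoter stretches were searched because all 3 serine synthesis genes and 3 of the 4 mitochondrial genes rose. Those printed include stretches of MTHFD1L and SHMT1, which did not pass. RefSeq entries on GRCh38.p14 matched 6 of the 9 members with 9 windows, 4 of them of MTHFD1L, and 250 bases before the transcript start were searched on both strands. PSPH, SHMT2 and ALDH1L2, which all rose, had no entry, so the motif statements cover 3 of the 6 genes that rose and the 3 that did not pass. The letters searched, chosen with earlier results known, were TGATGNAA (the shared core of ATF4 and C/EBP elements), TTCNNNGAA (the element STAT proteins bind), CACGTG (the E-box that MYC binds) and CCAAT (the box that NF-Y binds). They occurred in 3.14%, 6.57%, 6.34% and 32.0% of 35116 such windows in the genome. The window before PSAT1, which overlaps no annotated exon, is chr9:78296875-78297124 on the plus strand, with its 3 CCAAT boxes in capitals and none of the other letters.
PSAT1: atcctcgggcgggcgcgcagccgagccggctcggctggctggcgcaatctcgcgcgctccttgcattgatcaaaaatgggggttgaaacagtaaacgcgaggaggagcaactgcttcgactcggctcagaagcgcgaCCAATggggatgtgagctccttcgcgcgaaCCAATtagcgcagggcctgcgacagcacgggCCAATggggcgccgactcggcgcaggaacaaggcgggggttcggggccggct

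PHGDH and MTHFD2, the only members higher without overlap on both scales, had CCAAT boxes and none of the other letters in these windows. CACGTG occurred before MTHFD1 and MTHFD1L alone, and CCAAT before all 6. The sites below, 30 bases each on the plus strand at chr1:119711853-119711882 and chr2:74198421-74198450, show in capitals the longest run that both windows share. In GENCODE the PHGDH window overlaps exons of other PHGDH transcripts by up to 219 bases. The MTHFD2 window overlaps an exon of AC073263.2, on the other strand, by 196 bases and an exon of MTHFD2 by 53. All 250 bases of the MTHFD1 window, with its CACGTG, lie in an exon of another MTHFD1 transcript. The MTHFD1L windows before 150866486 and 150866447 overlap an MTHFD1L exon by 55 bases, and the SHMT1 window overlaps an SHMT1 exon by 13.
PHGDH: gtatttccgTCCAATCAAAAGgagactgta
MTHFD2: tcttctggcTCCAATCAAAAGcagggctct
This run was picked because it is shared, after the sequences were seen. It occurred in 6 windows of 6 genes, or 0.0171% of all windows, and the other 4 were those of MCM3, CEP192 and 2 uncharacterised loci, one of which overlaps the PHGDH window itself. A match is a run of letters and not a bound site.

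The mitochondrial branch starts with SHMT2 (ENSG00000182199, plus strand of chromosome 12, 57229327 to 57234935), which splits serine inside the organelle. It had 199, 183 and 195 CPM in wild-type cells and 228, 209 and 227 CPM in knockout cells. The ranges were separate, with wild-type replicate 1 and knockout replicate 2 nearest to each other. SHMT2 rose by 15.0%, a log2 fold change of 0.20 (SE 0.042, edgeR adjusted p = 0.00324). TPM overlapped between groups (181, 169 and 181 against 221, 178 and 207), and limma on log2(TPM + 1) gave an adjusted p of 0.160.

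MTHFD2 (ENSG00000065911, plus strand of chromosome 2, 74198562 to 74217565) encodes the mitochondrial dehydrogenase and cyclohydrolase that oxidises the folate-bound carbon. Its level was 252, 240 and 257 CPM in wild-type cells and 278, 275 and 282 CPM in knockout cells. The 3 knockout libraries lay close together and above all wild-type libraries. The log2 fold change was 0.16 (SE 0.034, edgeR adjusted p = 0.00387), the smallest of the 6 rises. Its deposited effective length was shorter in every knockout library (1746, 1816 and 1706 bases) than in any wild-type library (1882, 1921 and 1917 bases). TPM were thus separate too, at 220, 204 and 217 against 244, 227 and 257, and with effective-length offsets the log2 fold change was 0.25 (edgeR adjusted p = 0.0115). On log2(TPM + 1) the call ended (limma adjusted p = 0.0706). MTHFD2L, a mitochondrial paralogue with the same reactions, was far lower (10.3 TPM in wild-type cells and 10.7 in knockout cells) and did not pass, with 11.3 ± 0.831 and 12.5 ± 0.540 CPM (SD, n = 3, edgeR adjusted p = 0.307).

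ALDH1L2 (ENSG00000136010, minus strand of chromosome 12, 105019784 to 105084577) encodes the mitochondrial formyl-folate dehydrogenase, which oxidises the carbon unit to carbon dioxide and yields NADPH. It had 69.2, 65.5 and 78.2 CPM in wild-type cells and 93.8, 86.9 and 89.7 CPM in knockout cells, with no overlap. The log2 fold change of 0.34 (SE 0.058, edgeR adjusted p = 7.14e-04) was next to that of PHGDH in size. The rise was called on counts but not with effective-length offsets or on TPM, where the estimates were smaller but above 0. The deposited effective length was 6225, 6190 and 5836 bases in wild-type cells and 6859, 6592 and 6976 bases in knockout cells, and TPM were 18.2, 17.2 and 21.7 against 21.0, 19.8 and 20. With effective-length offsets the log2 fold change was 0.16 (edgeR adjusted p = 0.270), and on log2(TPM + 1) it was 0.089 (limma adjusted p = 0.591). With length and GC offsets the log2 fold change was 0.39 and the call held (edgeR adjusted p = 2.5e-04). NOPCHAP1, on the other strand, shares 145 exon bases with ALDH1L2 (1.70%), and the labels do not say whether counting used the strand. NOPCHAP1 itself had 31.7 ± 1.76 and 27.9 ± 2.37 CPM (SD, n = 3, edgeR adjusted p = 0.0837).

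MTHFD1L (ENSG00000120254, plus strand of chromosome 6, 150865549 to 151101887) encodes the mitochondrial synthetase that releases formate. Unlike the other 3 mitochondrial enzymes it did not pass, at 121, 119 and 124 CPM in wild-type cells and 123, 120 and 129 CPM in knockout cells. The ranges overlapped, and the log2 fold change was 0.030 (SE 0.038, edgeR adjusted p = 0.623). Its sign turned with effective-length offsets (−0.0265), on log2(TPM + 1) (−0.0945) and without knockout replicate 3 (−4.84e-04). On log2(TPM + 1) the median of all genes was −0.059. MTHFD1L was the only member of the 6 with the letters TGATGNAA before a start. They are shown in capitals at chr6:150866346-150866375, plus strand, beginning 129 and 90 bases before the starts at 150866486 and 150866447. It lies outside the windows before the other starts, 150866333 and 151007008.
MTHFD1L: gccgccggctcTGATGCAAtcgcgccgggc

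Neither of the cytosolic members, SHMT1 and MTHFD1, showed a call. SHMT1 (ENSG00000176974, minus strand of chromosome 17, 18327860 to 18363563), the cytosolic counterpart of SHMT2, had 109, 110 and 112 CPM in wild-type cells and 111, 109 and 121 CPM in knockout cells. Only knockout replicate 3 stood above the wild-type range. The log2 fold change was 0.040 (SE 0.042, edgeR adjusted p = 0.540) and −0.00747 without that library. On log2(TPM + 1) it was −0.0411, where the median of all genes was −0.059. SMCR8, on the other strand, shares 196 exon bases with SHMT1 (2.69%) and had 138 ± 7.08 and 128 ± 2.67 CPM (SD, n = 3, edgeR adjusted p = 0.0748). SHMT1 was the only one of the 6 with the STAT letters, in capitals here at chr17:18363748-18363777, minus strand, beginning 217 bases before the start.
SHMT1: ctgtgtagtcTTCCTGGAAatcttggtcca

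MTHFD1 (ENSG00000100714, plus strand of chromosome 14, 64388031 to 64463457), the cytosolic enzyme that combines synthetase, cyclohydrolase and dehydrogenase activities, had the highest mean CPM of the 9 in both groups, though its knockout range overlapped that of PHGDH. It had 452, 449 and 459 CPM in wild-type cells and 462, 452 and 457 CPM in knockout cells, which overlap. The log2 fold change was 0.011 (SE 0.030, edgeR adjusted p = 0.835) and −0.0609 on log2(TPM + 1), where the median of all genes was −0.059. Its pseudogene MTHFD1P1 held at most 64.58 estimated reads in a library, or 0.686% of those of MTHFD1. Pseudogenes of PSAT1, SHMT1 and MTHFD2 held at most 5.02 reads in a library. DESeq2, limma-voom and an unadjusted edgeR p under 0.05 called 0 of these 2 genes.

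**Figure D2:**
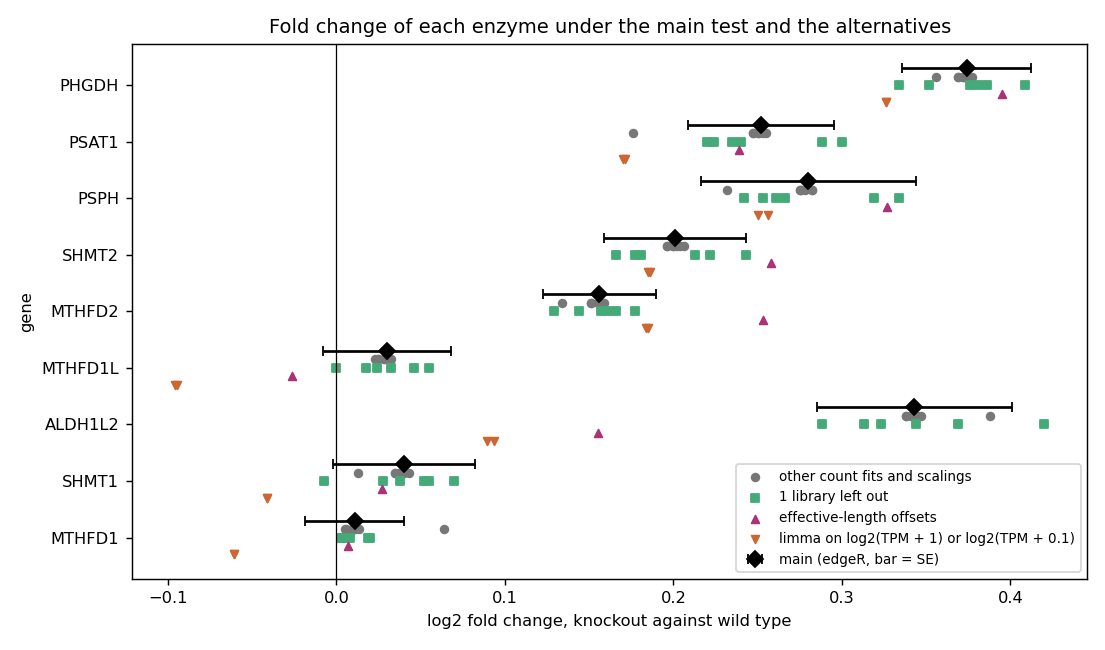
Log2 fold change (horizontal axis, knockout against wild type) of each enzyme in the edgeR test on counts, with its SE, and under the alternatives by kind. PHGDH stays between 0.33 and 0.41, ALDH1L2 moves from 0.34 to 0.16 under effective-length offsets and to 0.089 on log2(TPM + 1), and MTHFD1L, SHMT1 and MTHFD1 lie on both sides of 0. The median of all genes on log2(TPM + 1) is −0.059.

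Whether the branches differed was examined within libraries, as ratios of TPM for 7 pairs of enzymes set by role. The smallest p that a two-sided exact permutation test of 3 against 3 libraries allows is 0.1, which is 0.233 or more after adjustment over the 7 pairs. SHMT2 exceeded SHMT1 by 1.96, 1.89 and 1.97 times in wild-type cells and by 2.49, 2.07 and 2.27 times in knockout cells. These ranges did not overlap, a log2 difference of 0.23 (exact permutation p = 0.1). MTHFD2 was at 0.657, 0.609 and 0.695 of MTHFD1 in wild-type cells and at 0.780, 0.733 and 0.811 in knockout cells, also without overlap (log2 difference 0.25, exact permutation p = 0.1). Both mitochondrial enzymes were thus higher relative to their cytosolic counterparts in every knockout library. On CPM these ratios did not overlap either, but the log2 differences were smaller, at 0.16 for SHMT2/SHMT1 and 0.15 for MTHFD2/MTHFD1.

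Other ratios were less separate. MTHFD1L stayed at 0.221 to 0.226 of MTHFD1 in wild-type cells and 0.205 to 0.229 in knockout cells (exact permutation p = 0.7). PSAT1 was at 0.493, 0.520 and 0.521 of PHGDH in wild-type cells and 0.486, 0.438 and 0.455 in knockout cells, lower without overlap (log2 difference −0.16, exact permutation p = 0.1), but on CPM these ratios overlapped. PSPH relative to PHGDH (exact permutation p = 0.6), ALDH1L2 relative to MTHFD1L (p = 0.3, exact) and MTHFD2 relative to MTHFD2L (p = 0.5, exact) overlapped between the groups. On CPM, ALDH1L2 relative to MTHFD1L did not overlap (log2 difference 0.32 against 0.19 on TPM).

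**Figure D3:**
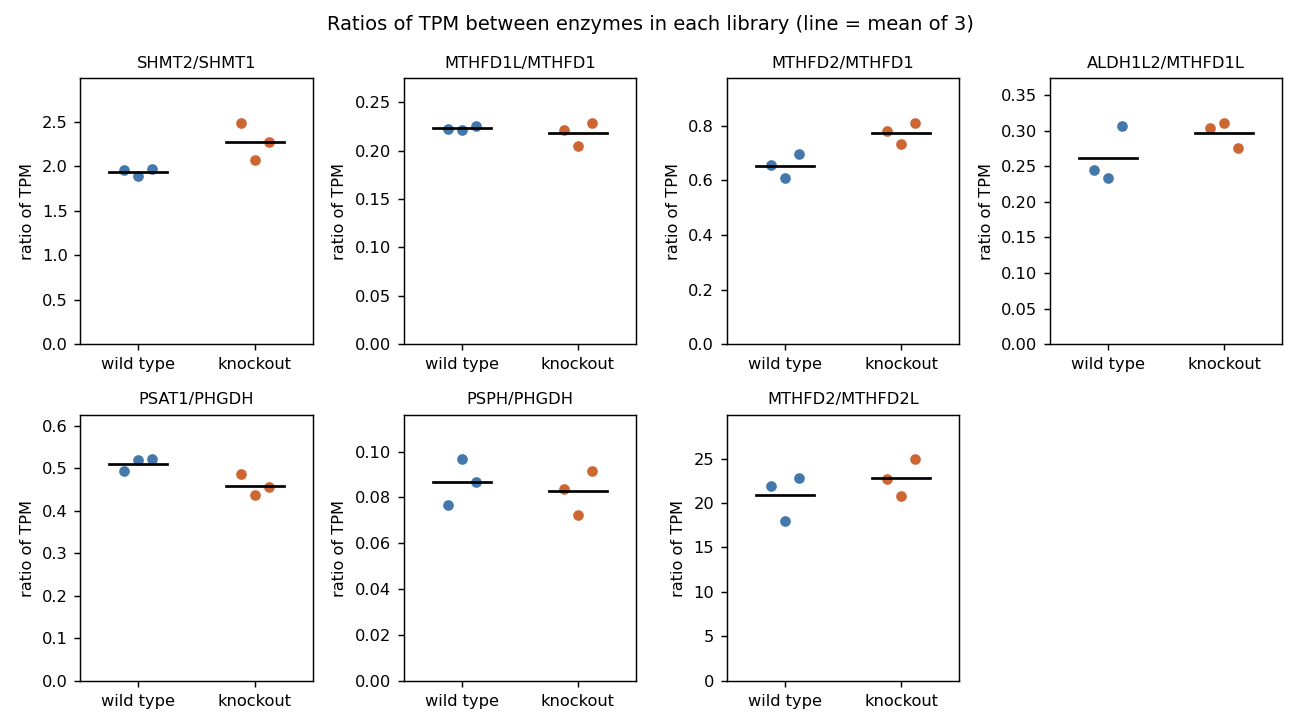
Ratio of TPM (vertical axis, from 0) between 2 enzymes in each of the 3 wild-type and 3 knockout libraries, with the group mean as a line. The SHMT2/SHMT1 and MTHFD2/MTHFD1 points of the knockout lie above all wild-type points, and those of PSAT1/PHGDH lie below.

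Each enzyme was also set beside its 50 nearest tested genes on the chromosome. PHGDH lies among genes with a median log2 fold change of 0.11, of which 16 of 50 rose and 1 fell, and 6 of the 50 were at or above its own 0.37. The neighbours of PSPH had a median of 0.12, with 13 rises and 2 falls, and 10 of the 50 reached its value. Of all tested genes 12.1% rose and 11.4% fell, with a median of 0.006. Below 0 were 15 of the 50 around PHGDH and 16 of those around PSPH. The neighbours of PSAT1 and SHMT2 had medians of −0.037 and −0.045, and those of MTHFD2 and ALDH1L2 0.003 and 0.018. All 4 medians lay near 0 and turned sign with the number of neighbours: over 25 they were 0.012 for PSAT1, 0.053 for SHMT2 and −0.016 for MTHFD2, and over 100 that of ALDH1L2 was −0.011. In these stretches of 50 6, 7, 11 and 1 genes were at or above the enzyme. SHMT1 lies among genes with a median of 0.078, above its own value of 0.040, and 31 of 50 were at or above it. The part of these stretches in the rises of PHGDH and PSPH was not tested. Relative to the neighbours' median the log2 differences were 0.26 for PHGDH, 0.16 for PSPH, 0.29 for PSAT1, 0.25 for SHMT2, 0.15 for MTHFD2 and 0.33 for ALDH1L2.

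**Figure D4:**
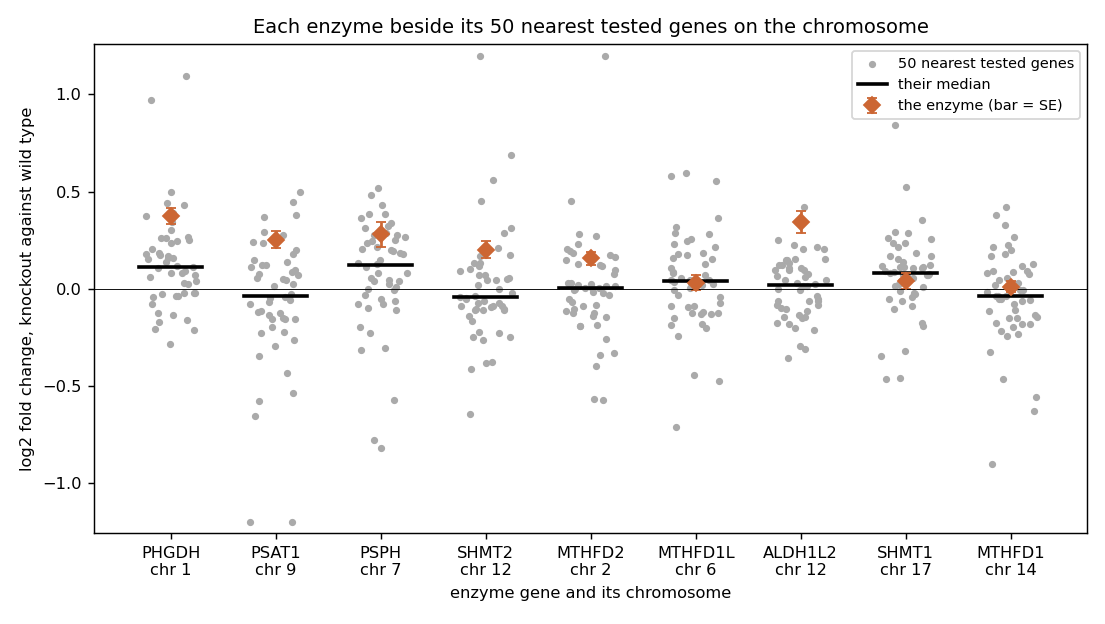
Log2 fold change (vertical axis, knockout against wild type) of each enzyme with its SE, its 50 nearest tested genes on the chromosome and their median. The 4 neighbours beyond 1.2 in either direction are drawn at the edge. The medians of the stretches around PHGDH and PSPH lie at 0.11 and 0.12, and ALDH1L2 lies above all but 1 of its neighbours.

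The rest of the pathway moved in both directions. Of 56 related genes in 8 lists, 44 were tested, 11 rose and 8 fell at an edgeR adjusted p under 0.05, and their median log2 fold change was 0.035. Over all tested genes 12.1% rose and 11.4% fell, with a median of 0.006. The lists were drawn up with earlier results known. Names beyond the rule for named genes were added after their values were seen.

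Among the 9 other folate enzymes that were tested 0 rose and 1 fell in edgeR, where 12.1% of all tested genes rose and 11.4% fell. DESeq2 and limma-voom gave 0 rises as well, and an unadjusted edgeR p under 0.05 gave 1. TYMS, thymidylate synthase, had 167 ± 5.37 and 173 ± 5.55 CPM (SD, n = 3, edgeR adjusted p = 0.330) and did not pass.

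Both folate carriers of the cell surface with enough reads were lower. Of 5 tested genes of uptake, transport and polyglutamate handling, 2 fell and 1 rose, where 11.4% of all tested genes fell and 12.1% rose. SLC19A1, the reduced folate carrier, was at 76.0 ± 2.83 CPM in wild-type cells and 62.2 ± 0.837 CPM in knockout cells, a log2 fold change of −0.29 (SE 0.044, edgeR adjusted p = 3.53e-04). SLC46A1, the proton-coupled folate transporter, fell by 0.26 (log2, edgeR adjusted p = 0.00616). GGH, which trims folate polyglutamates in lysosomes, rose by 0.29 (edgeR adjusted p = 0.00832, and 0.0503 without wild-type replicate 1). With effective-length offsets the edgeR calls of SLC19A1, SLC46A1 and GGH ended (adjusted p = 0.0547, 0.265 and 0.0715). FOLR2, a folate receptor, had 0 reads in every library.

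Of 3 tested genes of the glycine cleavage system, 1 rose and 0 fell, where 12.1% of all tested genes rose and 11.4% fell. DESeq2, limma-voom and an unadjusted edgeR p under 0.05 gave 0 falls too. GCSH, the lipoyl carrier protein of this system, rose by 0.19 (log2, edgeR adjusted p = 0.0127). This call ended without wild-type replicate 1 (0.0604) or knockout replicate 1 (0.0516), with effective-length offsets (0.0646) and with length and GC offsets (0.101). Without knockout replicate 3 the list had 2 rises. None of 7 tested methionine cycle genes passed edgeR, DESeq2 or limma-voom, where 23.4% of all tested genes passed edgeR. At an unadjusted edgeR p under 0.05, 2 were higher and 1 lower. That list had 1 rise without wild-type replicate 1, 1 fall without knockout replicate 2 and 1 of each with length and GC offsets.

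Both transsulfuration genes, which carry homocysteine and serine to cysteine, rose, where 12.1% of all tested genes rose. CTH, the cystathionine lyase, went from 21.5 ± 4.87 to 35.9 ± 6.36 CPM (SD, n = 3) and had the largest log2 fold change of the related genes at 0.73 (SE 0.142, edgeR adjusted p = 0.0020). CBS, the cystathionine synthase, went from 184 ± 8.67 to 218 ± 7.09 CPM (edgeR adjusted p = 4.71e-04), and with effective-length offsets its call ended (0.0774). CBS has a near-identical annotated copy, CBSL (ENSG00000274276), between which reads may be split, so the value of either is uncertain. CBSL had 111 ± 6.68 and 115 ± 7.20 CPM (SD, n = 3, edgeR adjusted p = 0.492) and did not pass. Summed, CBS and CBSL had 295, 293 and 297 CPM in wild-type cells and 334, 336 and 329 CPM in knockout cells, which do not overlap. On log2(TPM + 1) both calls ended (limma adjusted p = 0.0795 for CTH and 0.269 for CBS). 

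All 7 tested serine carriers changed, 3 up and 4 down, where 23.4% of all tested genes changed in either direction. SLC1A4, a neutral amino acid exchanger of the cell surface, rose by 0.33 (log2, edgeR adjusted p = 0.00807), as did SLC38A2 by 0.11 and the mitochondrial serine carrier SFXN1 by 0.13. The related sideroflexins SFXN2 and SFXN3 fell by 0.39 and 0.50 (edgeR adjusted p = 4.44e-04 and 0.0103), and the amino acid transporters SLC1A5 and SLC38A1 by 0.14 and 0.11. Several of these calls ended when a single library was left out. In edgeR, that of SLC1A4 ended without knockout replicate 1 (adjusted p = 0.0544), that of SFXN3 without wild-type replicate 3 (0.0598), and that of SLC1A5 without wild-type replicate 1 (0.0579) or knockout replicate 2 (0.0555). For SFXN1 this held for wild-type replicates 1 and 2 and knockout replicate 2 (0.0740, 0.0615 and 0.0591). For SLC38A1 it held for each wild-type replicate (0.0535, 0.0924 and 0.13) and knockout replicate 2 (0.128). For SLC38A2 it held for each wild-type replicate (0.0629, 0.0957 and 0.0839) and knockout replicates 1 and 3 (0.117 and 0.0551). The SFXN2 call held in all 16 settings. Effective-length offsets left 1 rise and 2 falls.

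Among 7 tested genes that use or break down serine, 2 rose and 1 fell, where 12.1% of all tested genes rose and 11.4% fell. SPTLC2, a subunit of the enzyme that joins serine to palmitoyl-CoA in sphingolipid synthesis, fell from 142 ± 3.57 to 121 ± 2.54 CPM (SD, n = 3, edgeR adjusted p = 3.99e-04). SARS1, the cytosolic seryl-tRNA synthetase, rose from 198 ± 6.68 to 243 ± 1.82 CPM, whereas its mitochondrial counterpart SARS2 had 25.7 ± 1.22 and 25.8 ± 3.29 CPM and did not pass. SRR, serine racemase, rose by 0.26 (log2, edgeR adjusted p = 0.0447). Its call ended in 10 of 16 settings, among them the replicate block (0.0601), DESeq2 (0.0946), without wild-type replicate 2 (0.151) or 3 (0.116) and without knockout replicate 2 (0.198) or 3 (0.0547).

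Of 4 tested transcription factors reported to act on these genes, 2 rose and 0 fell in edgeR, where 12.1% of all tested genes rose. ATF4 was at 586 ± 9.51 CPM in wild-type cells and 724 ± 25.8 CPM in knockout cells (SD, n = 3), a rise of 0.31 (log2, edgeR adjusted p = 3.15e-05). The other factor that rose is not reported here by name. The call of ATF4 held in all 16 settings. MYC had 234 ± 1.10 and 239 ± 5.62 CPM (edgeR adjusted p = 0.554), and NFE2L2 66.2 ± 1.95 and 73.4 ± 5.17 CPM (edgeR adjusted p = 0.0563), and neither passed.

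**Figure D5:**
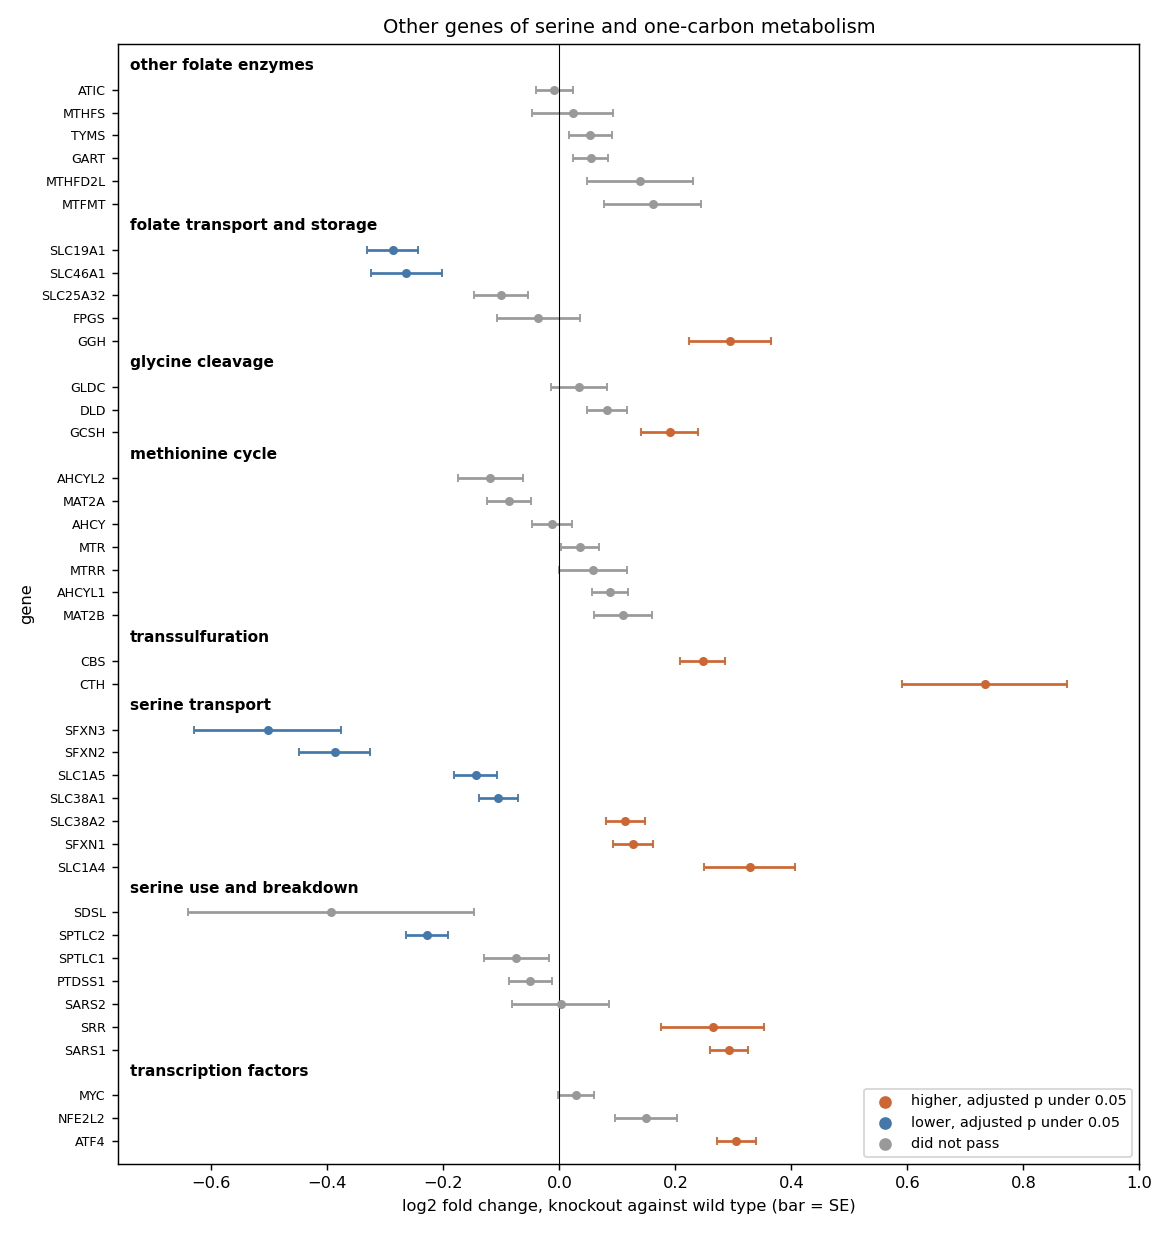
Log2 fold change (horizontal axis, knockout against wild type) with its SE for 40 of the 44 tested related genes, grouped by list and coloured by call. CTH lies furthest to the right at 0.73 and SFXN3 furthest to the left at −0.50, and none of the methionine cycle genes is coloured.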

How the data were processed

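RNA was isolated from 3 wild-type and 3 STAT5B knockout HEK293 samples, and mRNA libraries were sequenced. Per the submitters' processing notes, FastQC, fastp, DRAGEN, Picard and hg38 were used, with roles and versions not given. Annotation release, read assignment and strandedness are likewise not given in the sources. Per the file headers, the authors deposited 1 table per library with length, effective length, TPM and estimated count for 60609 identifiers, of which 60340 matched a name table. Positions came from GENCODE release 29, on the same genome build.

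The deposited estimated counts (7.12% to 7.64% not whole) were rounded and tested with edgeR 4.0.16 in R 4.3.3 (filterByExpr with minimum count 10 and total 15, TMM, quasi-likelihood F test of genotype). Benjamini-Hochberg adjustment covered all 15958 tested genes, with a threshold of 0.05. CPM use TMM-scaled library sizes. Deposited TPM served for levels, ratios and limma 3.58.1 alternatives. The deposited lengths served for offsets. DESeq2 1.42.0 was another alternative, as were other scalings and filters, length and GC offsets (added after seeing the data), a replicate block and leaving out each library. Scripts were tested on simulated data drawn with either of 2 models of the gene-wise spread. Under one, more of the calls were false than the adjusted threshold states, and the pass mark was set on the other after a first mark was missed, so adjusted p-values near 0.05 may be too small. Replicates differed by more than sampling noise (chi-square per degree of freedom 2.45 to 7.50).

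All 9 members were reported, and in related lists all changed genes up to 5, otherwise the 3 with the smallest p, plus a few partners such as ATF4, MTHFD2L and TYMS. Some related genes are counted but not reported here by name. Members and lists were chosen with earlier results of these data known.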

Additional observations from a re-analysis of the deposited data

How the results depend on the processing

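The 6 rises among the 9 enzymes kept their direction in each of the 16 alternatives, and none ended when a library was left out (edgeR adjusted p at most 0.0329). On log2(TPM + 1) and log2(TPM + 0.1) limma called 1 of them. Over all genes the count test called 1924 higher and 1818 lower, against 891 and 843 using effective-length offsets, 488 and 1135 on log2(TPM + 1) and 483 and 1139 on log2(TPM + 0.1). Rises were 51.4% of the calls on counts and 30.1% on log2(TPM + 1), which moved the median of all genes to −0.059. Related genes went from 11 rises to 5 using effective-length offsets and 3 on either TPM scale, and from 8 falls to 4 using effective-length offsets. The causes were not tested. With 1 library left out, 1339 to 1789 genes were higher and 1279 to 1786 lower.

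Signs turned for values near 0. On log2(TPM + 1) and log2(TPM + 0.1) SHMT1 was at −0.0411 and −0.0415, MTHFD1 at −0.0609 and −0.0610, and MTHFD1L at −0.0945 and −0.0957, with MTHFD1L at −0.0265 under effective-length offsets. The median of all genes was itself −0.059 on log2(TPM + 1) and −0.067 on log2(TPM + 0.1). With 1 library left out SHMT1 ranged from −0.00747 to 0.0695, MTHFD1L from −0.000484 to 0.0551, the log2 ratio of MTHFD1L to MTHFD1 from −0.069 to 0.009 (0.020 on CPM) and that of PSPH to PHGDH from −0.153 to 0.022. Median log2 fold changes over 25 and 100 neighbours were 0.158 and 0.156 for PHGDH, 0.079 and 0.072 for PSPH, 0.053 and −0.001 for SHMT2, and 0.047 and 0.052 for MTHFD1L. Over 25 neighbours that of MTHFD2 was −0.016, and over 100 that of ALDH1L2 was −0.011.

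With a replicate block 1887 genes were higher and 1773 lower, the members again gave 6 rises, and of the named calls only that of SRR ended (edgeR adjusted p = 0.0601). Libraries with the same number correlated at 0.004, 0.104 and 0.042, and wild-type replicate 3 correlated at 0.052 with knockout replicate 1. The largest value over all pairs was the 0.104 of the replicates numbered 2. Correlations this small cannot tell whether libraries with the same number shared a culture or day, which the labels do not say.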
